A study of Mus musculus with 18 samples.

Results

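The 5 claudins Cldn3, Cldn4, Cldn6, Cldn7 and Cldn9, the tight junction protein gene Ocln and the 3 simple epithelial keratins Krt8, Krt18 and Krt19 were followed through mouse gastruloids given a Wnt pulse at different times. They were taken by name from the deposited count table, where each name matched 1 row, so that 9 of 55385 genes are described. All 9 passed the filter on low counts, which left 16041 genes for testing.

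Gastruloids are aggregates of mouse embryonic stem cells in which, in culture, germ layers and an elongating body axis arise. All cells were wild type (WT) on the 129/SVEV background, and no other allele is named in the labels. Control gastruloids were exposed between 48 and 72 h after aggregation to CHIR, a GSK3 inhibitor that switches on the Wnt/β-catenin pathway, and early gastruloids between 24 and 48 h. The 6 groups of 3 libraries were control 48 h (untreated at that age), control 72 h (at the end of the control pulse), control 96 h (1 day after it), early 48 h (at the end of the early pulse), early 72 h (1 day after it) and early 96 h. The gastruloids of a condition were pooled before RNA extraction, so each library is an average over many aggregates. In such bulk RNA, fewer cells expressing a gene and less of its RNA per cell cannot be told apart. No label says that replicate libraries were grown as separate cultures, so the p-values reflect only how far these samples differ, and that spread may be technical.

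Claudins are membrane proteins with 4 transmembrane passes whose strands form the seal and the ion pores of tight junctions at the apical border of epithelial cells, and occludin, encoded by Ocln, joins the same strands. Keratins build the intermediate filaments of epithelia from a type II and a type I partner, here Krt8 (type II) with Krt18 or Krt19 (type I), and these simple keratins are among the first made in the embryo. The epiblast is an epithelium, and cells that leave it through the primitive streak to become mesoderm take down such junctions under repressors of the Snail and Zeb families.

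Several of the genes are neighbours in the genome (mm10, GENCODE M21 annotation, positions counted from 1). Cldn3 (chr5:134986214-134987472, + strand) and Cldn4 (chr5:134945119-134946934, − strand) each have 1 exon, point away from each other and lie 39279 bases apart with no protein-coding gene between them. Cldn6 (chr17:23679249-23682446, + strand) and Cldn9 (chr17:23682584-23684026, − strand) converge, with 137 bases between their ends. Krt8 (chr15:101996698-102004482, − strand) and Krt18 (chr15:102028180-102032027, + strand) point away from each other across 23697 bases. Cldn7 (chr11:69964779-69967885, + strand), Ocln (chr13:100496507-100552718, − strand) and Krt19 (chr11:100140810-100148665, − strand) have no other member beside them.

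RefSeq promoter sequence of build GRCm38.p6 was found for 7 of the 9 genes, in 9 windows of 250 bases before an annotated start. The windows of the neighbours Cldn3 and Cldn4, whose levels followed unlike courses, of Cldn6 and Cldn7, whose levels followed like courses, and of the filament partners Krt8 and Krt18 are shown 5′ to 3′, each cut back where it entered the gene's GENCODE bounds. Capitals mark CAGGTG or its reverse complement CACCTG, the E-box read by Snail and Zeb proteins.
Cldn3 (chr5:134985964-134986213, + strand): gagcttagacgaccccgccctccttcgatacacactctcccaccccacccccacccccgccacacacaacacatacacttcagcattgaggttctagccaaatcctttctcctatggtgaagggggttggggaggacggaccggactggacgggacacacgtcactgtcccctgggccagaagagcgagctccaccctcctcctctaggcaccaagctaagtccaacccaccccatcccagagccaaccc
Cldn4 (chr5:134946935-134947184, − strand): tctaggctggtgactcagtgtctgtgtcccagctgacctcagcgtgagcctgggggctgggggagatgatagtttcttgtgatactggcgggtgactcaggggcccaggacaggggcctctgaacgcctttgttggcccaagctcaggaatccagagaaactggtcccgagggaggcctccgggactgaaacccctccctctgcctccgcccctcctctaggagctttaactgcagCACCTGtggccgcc
Cldn6 (chr17:23679115-23679248, + strand): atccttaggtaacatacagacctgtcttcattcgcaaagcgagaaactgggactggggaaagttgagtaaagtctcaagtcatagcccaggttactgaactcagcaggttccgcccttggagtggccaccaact
Cldn7 (chr11:69964529-69964778, + strand): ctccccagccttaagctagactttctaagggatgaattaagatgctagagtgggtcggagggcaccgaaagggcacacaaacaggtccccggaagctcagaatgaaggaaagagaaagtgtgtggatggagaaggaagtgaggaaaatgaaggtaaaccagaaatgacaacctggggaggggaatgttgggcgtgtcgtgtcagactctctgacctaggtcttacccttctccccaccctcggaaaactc
Krt8 (chr15:102004483-102004592, − strand): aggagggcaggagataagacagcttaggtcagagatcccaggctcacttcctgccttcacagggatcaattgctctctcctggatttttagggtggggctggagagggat
Krt18 (chr15:102027966-102028179, + strand): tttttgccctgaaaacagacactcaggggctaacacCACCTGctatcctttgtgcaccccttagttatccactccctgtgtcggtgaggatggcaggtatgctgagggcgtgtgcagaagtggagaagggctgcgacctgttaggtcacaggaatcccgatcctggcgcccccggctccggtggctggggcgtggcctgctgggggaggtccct

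The E-box was searched on both strands of the full windows and was found in 6 of the 9. It is held by 17.2% of all 32851 RefSeq mouse promoter windows of this length. Counted from the RefSeq start to the first base of the match, it began 14 bases upstream in Cldn4 and 214 bases upstream in Krt18, both printed above. The matches 93 bases upstream in Cldn6, 111 bases upstream in Krt8, 97 and 57 bases upstream of an internal start of Cldn7, and 213 and 68 bases upstream of an internal start of Ocln fell within the GENCODE bounds of those genes. The window of Cldn3 held none. The GC box GGGCGG stood in 6 of the 9 windows, against 32.7% of all windows, and was absent from the windows of both keratins. The Grainyhead-type motif AACCNGTT (1.79% of all windows), the TCF/LEF motif CTTTGAT (3.21%) and the octamer ATGCAAAT (1.6%) had no match in any of the 9 windows. These matches describe letters only, and no binding was measured.

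Total counts ranged from 14841728 to 24536538 per library. The libraries numbered 3 of the controls differed from replicates 1 and 2 of their groups at each age, with a chi-square per degree of freedom between counts of 15.4 to 28.1, where all other replicate pairs gave 1.41 to 7.9. Calls of the 9 genes that changed without these libraries are given beside the results. The labelled tissue was checked on its markers. The summed level of the epiblast genes Pou5f1, Sox2, Nanog and Utf1 was 1664 to 2013 CPM in every library outside control 96 h and 312 to 587 CPM there. The presomitic genes Tbx6, Msgn1 and Meox1 summed to 151 to 487 CPM in control 96 h and to at most 2.76 CPM elsewhere.

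The unit of level is CPM, in which TMM adjustment puts all libraries on a common size. Genes are compared with each other only in FPKM, which also divides by transcript length. Changes are log2 fold changes ± SE from edgeR's quasi-likelihood test, with p-values adjusted by Benjamini-Hochberg over all 16041 genes, and an adjusted p below 0.05 is termed a call. By FPKM, Cldn6 was the most abundant of the 5 claudins in each of the 6 groups, at 72.1 ± 2.18 FPKM (SD, n = 3) in control 48 h and 10.1 ± 1.3 FPKM in control 96 h. Krt18 was the most abundant of the 3 keratins in 4 groups, but in control 96 h Krt8 was higher at 14.3 ± 5.92 FPKM against 7.93 ± 2.12 FPKM, and in control 72 h they were level at 6.81 ± 0.335 and 6.83 ± 0.452 FPKM. Cldn9 and Krt19 were low throughout, with at most 1.44 and 1.88 FPKM in any library.

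**Figure D1:**
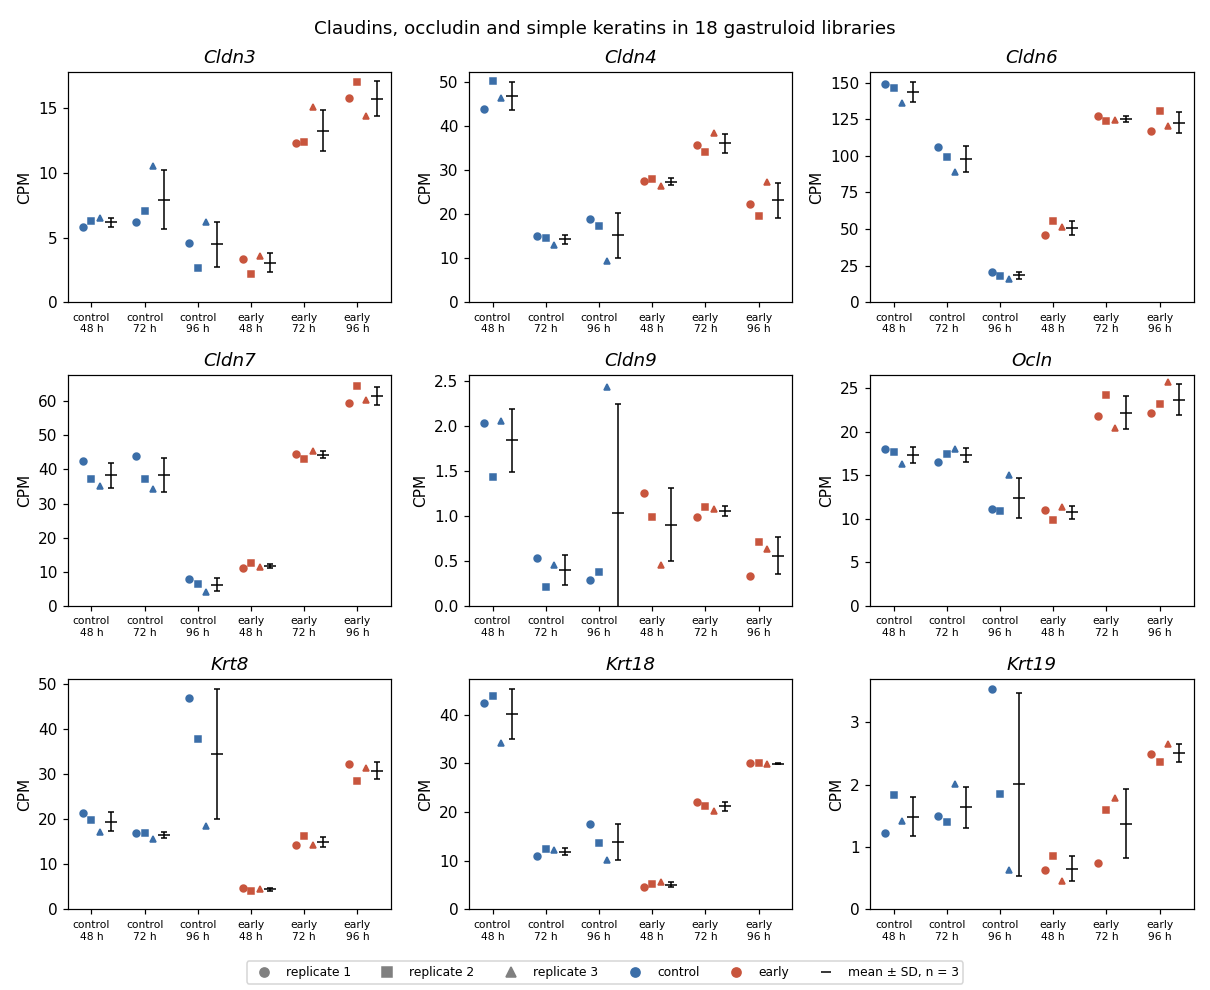
Level of each of the 9 genes in CPM (vertical axes from 0, 1 scale per gene) in the 18 libraries; circles, squares and triangles are replicates 1, 2 and 3, blue is control, red is early, and the bar is the mean ± SD of 3 libraries, drawn only down to 0. Cldn6 and Cldn7 are lowest in control 96 h, where Krt8 spans 18.6 to 46.9 CPM, and early 48 h has the lowest mean for Cldn3, Ocln, Krt8, Krt18 and Krt19.

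Cldn6, a claudin of early embryonic epithelia, was at its lowest in control 96 h and stayed high in early gastruloids of that age. Replicates 1, 2 and 3 held 149, 147 and 136 CPM in control 48 h, 106, 99.0 and 88.9 CPM in control 72 h, and 20.8, 17.97 and 16.2 CPM in control 96 h. Early libraries held 46.0, 55.5 and 51.3 CPM at 48 h, 127, 124 and 125 CPM at 72 h, and 117, 131 and 121 CPM at 96 h. In the controls each age lay below the previous age without overlap, whereas the early libraries were low at 48 h and overlapped between 72 and 96 h. From the highest mean to the lowest the order was control 48 h, early 72 h, early 96 h, control 72 h, early 48 h and control 96 h, with overlap only between early 72 and 96 h. Cldn6 was 2.83-fold lower in early than in control gastruloids at 48 h (−1.50 ± 0.08, adjusted p = 4.38e-11), slightly higher at 72 h (0.35 ± 0.08, adjusted p = 0.00108) and 6.66-fold higher at 96 h (2.74 ± 0.09, adjusted p = 4.15e-14). Between 72 and 96 h it fell in the controls (−2.41 ± 0.09, adjusted p = 2.48e-13) and differed by −0.03 ± 0.08 in the early arm (adjusted p = 0.803, 95% interval −0.19 to 0.13).

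Cldn7, a claudin of lateral as well as apical epithelial membranes, took nearly the same course with a wider span. Control libraries held 42.4, 37.3 and 35.2 CPM at 48 h, 44.0, 37.1 and 34.1 CPM at 72 h, and 7.88, 6.46 and 4.05 CPM at 96 h. In the early arm the values were 11.2, 12.5 and 11.5 CPM at 48 h, 44.5, 43.1 and 45.3 CPM at 72 h, and 59.6, 64.5 and 60.3 CPM at 96 h. The controls of 48 and 72 h overlapped each other and those of 72 h overlapped the early libraries of 72 h, while the 3 other groups stood clear. Cldn7 was 3.27-fold lower in early gastruloids at 48 h (−1.71 ± 0.13, adjusted p = 7.7e-09) and 9.77-fold higher at 96 h (3.29 ± 0.14, adjusted p = 1.64e-12). At 72 h the difference of 0.20 ± 0.12 did not pass the test (adjusted p = 0.175, 95% interval −0.05 to 0.46), but did with no filter on low counts (adjusted p = 0.0388). Cldn7 fell by 2.61 ± 0.14 on the log2 scale in the controls from 72 to 96 h (adjusted p = 5.58e-11) and rose in the early arm both from 48 to 72 h (1.92 ± 0.13, adjusted p = 7.88e-09) and from 72 to 96 h (0.47 ± 0.12, adjusted p = 0.00427).

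Cldn3, a sealing claudin, was highest in the early gastruloids after their pulse. It measured 5.81, 6.28 and 6.47 CPM in control 48 h, 6.24, 7.04 and 10.5 CPM in control 72 h, and 4.55, 2.66 and 6.17 CPM in control 96 h. Early libraries gave 3.34, 2.21 and 3.60 CPM at 48 h, 12.3, 12.4 and 15.1 CPM at 72 h, and 15.8, 17.0 and 14.4 CPM at 96 h. The early libraries of 72 and 96 h lay above all others and overlapped each other, and among the 4 lower groups each overlapped the next in rank. Cldn3 was lower in early gastruloids at 48 h (−1.01 ± 0.25, adjusted p = 0.00299) and higher at 72 h (0.75 ± 0.21, adjusted p = 0.00732) and 96 h (1.83 ± 0.22, adjusted p = 1.13e-06). It rose in the early arm from 48 to 72 h (2.10 ± 0.23, adjusted p = 1.67e-06). The fall in the controls from 72 to 96 h (−0.83 ± 0.23, adjusted p = 0.00544) did not pass in a fit of those 6 libraries alone (adjusted p = 0.0689).

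Cldn4, the neighbour of Cldn3 and a claudin of many simple epithelia, followed another course. Control libraries held 43.7, 50.2 and 46.3 CPM at 48 h, 15.0, 14.6 and 12.996 CPM at 72 h, and 18.9, 17.4 and 9.29 CPM at 96 h. Early libraries held 27.6, 27.9 and 26.4 CPM at 48 h, 35.6, 34.1 and 38.3 CPM at 72 h, and 22.3, 19.6 and 27.3 CPM at 96 h. It was highest in the untreated controls and lowest in the controls of 72 and 96 h, which overlapped each other. Cldn4 fell 3.28-fold over the control pulse (−1.71 ± 0.17, adjusted p = 5.81e-08), and at the end of the early pulse it was higher than at the end of the control pulse (0.94 ± 0.17, adjusted p = 0.000105). Early gastruloids had less Cldn4 than controls at 48 h (−0.78 ± 0.16, adjusted p = 0.00053), more at 72 h (1.33 ± 0.17, adjusted p = 3.85e-06) and more at 96 h (0.58 ± 0.17, adjusted p = 0.00612, but 0.0745 in a fit of the 6 libraries of 96 h alone). In the early arm it fell from 72 to 96 h (−0.64 ± 0.16, adjusted p = 0.00416). The rise from early 48 to 72 h (0.40 ± 0.16) was at the threshold (adjusted p = 0.0494) and did not pass without any 1 of its 6 libraries (adjusted p = 0.0699 to 0.137).

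Cldn9, the convergent neighbour of Cldn6, was the least abundant claudin and rested on 4 to 40 counts per library. Its values were 2.04, 1.43 and 2.05 CPM in control 48 h, 0.533, 0.2085 and 0.455 CPM in control 72 h, and 0.2845, 0.380 and 2.43 CPM in control 96 h. Early libraries gave 1.26, 0.982 and 0.458 CPM at 48 h, 0.992, 1.10 and 1.07 CPM at 72 h, and 0.332, 0.710 and 0.635 CPM at 96 h. Control replicate 3 of 96 h stood far above the other libraries of its group, and Cldn6, at 16.2 CPM, was at its lowest in that library. Whether reads running past the end of Cldn6 entered the few counts of Cldn9 was not tested, and the strand setting of the counts is unknown. Among the 9 pairwise comparisons Cldn9 was called in 1, the fall of the controls from 48 to 72 h (−2.20 ± 0.61, adjusted p = 0.00426), which measured −0.68 on log2(FPKM + 1). The difference between control 96 h and control 72 h, 1.25 with all libraries (adjusted p = 0.125), rested on replicate 3 of 96 h. It was −0.26 (adjusted p = 0.703) without that library, and was called without replicate 1 (1.78, adjusted p = 0.0199), without replicate 2 (1.63, adjusted p = 0.0488) and with no filter on low counts (1.25, adjusted p = 0.0076). Early 72 h against control 96 h gave 0.16 with all libraries (adjusted p = 0.807), −0.36 and −0.21 without control replicates 1 and 2 of 96 h, and 1.68 (adjusted p = 0.00177) without replicate 3. Some early against control differences that missed the test with all libraries passed with no filter, in fits of only the groups compared and without the 3 control libraries numbered 3. Among these were 1.41 at 72 h (adjusted p = 0.0875 with all libraries, then 0.00172, 0.0051 and 0.0063) and 1.19 between the ends of the pulses (0.135, then 0.0112, 0.0377 and 0.01765). The difference at 96 h, −0.74 with all libraries (adjusted p = 0.3185), was not among them. It was 0.79 (adjusted p = 0.179) without the 3 control libraries numbered 3.

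Ocln kept within 9.88 to 25.7 CPM and was lowest on average at the end of the early pulse. Control libraries held 18.1, 17.7 and 16.3 CPM at 48 h, 16.5, 17.5 and 17.999 CPM at 72 h, and 11.1, 10.9 and 15.0 CPM at 96 h. The early arm gave 10.97, 9.88 and 11.3 CPM at 48 h, 21.9, 24.3 and 20.5 CPM at 72 h, and 22.2, 23.2 and 25.7 CPM at 96 h. The early libraries of 72 and 96 h were the highest and overlapped, and early 48 h and control 96 h were the lowest and overlapped. Ocln was lower in early gastruloids at 48 h (−0.69 ± 0.11, adjusted p = 5.83e-05) and higher at 96 h (0.95 ± 0.11, adjusted p = 5.57e-07). The rise at 72 h (0.36 ± 0.11, adjusted p = 0.00931) did not pass without early replicate 2 (0.29, adjusted p = 0.06) or when all genes were fitted as log2(FPKM + 1) (0.28, adjusted p = 0.0593). Over the control pulse its mean stayed at 17.3 CPM (95% interval of the log2 change −0.23 to 0.22), and it then fell (−0.50 ± 0.11, adjusted p = 0.000869).

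Krt18, the type I keratin, had the largest early against control difference of the 9 genes at 48 h. Control libraries held 42.4, 43.8 and 34.3 CPM at 48 h, 11.03, 12.4 and 12.2 CPM at 72 h, and 17.6, 13.7 and 10.2 CPM at 96 h. Early libraries held 4.54, 5.22 and 5.55 CPM at 48 h, 22.1, 21.3 and 20.3 CPM at 72 h, and 30.0, 30.1 and 29.8 CPM at 96 h. The ranks ran control 48 h, early 96 h, early 72 h, control 96 h, control 72 h and early 48 h, with overlap only between the controls of 96 and 72 h. Krt18 was 7.91-fold lower in early than in control gastruloids at 48 h (−2.98 ± 0.15, adjusted p = 2.51e-11), then higher at 72 h (0.84 ± 0.14, adjusted p = 9.24e-05) and at 96 h (1.10 ± 0.13, adjusted p = 1.39e-06). Over the control pulse it fell 3.39-fold (−1.76 ± 0.14, adjusted p = 3.21e-09), and in the early arm it rose from 48 to 72 h (2.06 ± 0.15, adjusted p = 2.15e-08) and again to 96 h (0.50 ± 0.13, adjusted p = 0.00635). Between 72 and 96 h its change in the controls was 0.24 ± 0.14 (adjusted p = 0.168), and 0.42 (adjusted p = 0.00421) without control replicate 3 of 96 h.

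Krt8, its type II partner, also had its lowest values in early 48 h. Control libraries held 21.5, 19.8 and 17.2 CPM at 48 h, 16.8, 17.0 and 15.7 CPM at 72 h, and 46.9, 37.9 and 18.6 CPM at 96 h. The early arm gave 4.74, 4.11 and 4.58 CPM at 48 h, 14.4, 16.3 and 14.2 CPM at 72 h, and 32.2, 28.6 and 31.4 CPM at 96 h. Control replicate 3 of 96 h lay far below replicates 1 and 2, so that the controls of 96 h lay on both sides of the early libraries. Over the control pulse the change of −0.24 ± 0.21 did not pass (adjusted p = 0.335), although all libraries of control 72 h lay below those of control 48 h. It was called without the 3 control libraries numbered 3 (−0.29, adjusted p = 0.0174) and in a fit of those 6 libraries alone (−0.24, adjusted p = 0.0492). Krt8 was 4.35-fold lower in early gastruloids at 48 h (−2.12 ± 0.24, adjusted p = 1.21e-06). The differences at 72 h (−0.14 ± 0.21, adjusted p = 0.621, 95% interval −0.59 to 0.31) and at 96 h (−0.18 ± 0.20, adjusted p = 0.449, 95% interval −0.59 to 0.23) did not pass. Without control replicate 3 of 96 h, Krt8 was called lower in early gastruloids of that age (−0.46, adjusted p = 0.000193), and without replicate 1 the difference was 0.12 (adjusted p = 0.592). It rose in both arms from 72 to 96 h, by 1.07 ± 0.20 in the controls (adjusted p = 0.000224) and 1.03 ± 0.21 in the early arm (adjusted p = 0.000802). Of the 50-base windows in the Krt8 transcript, 29.7% recur elsewhere, mostly in the pseudogene Krt8-ps, which held 0 to 2 counts per library, so that few Krt8 reads can have been assigned to it. How reads matching both places were counted is not given in the sources used here.

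Krt19, the other type I keratin, was scarce, with 8 to 87 counts per library. The values were 1.22, 1.83 and 1.41 CPM in control 48 h, 1.49, 1.41 and 2.01 CPM in control 72 h, and 3.54, 1.85 and 0.624 CPM in control 96 h. Early libraries gave 0.628, 0.859 and 0.458 CPM at 48 h, 0.744, 1.59 and 1.79 CPM at 72 h, and 2.49, 2.37 and 2.66 CPM at 96 h. Early 48 h lay below both earlier control groups, and the controls of 96 h spanned the widest range of any group. With all libraries Krt19 was called in 1 of the 9 pairwise comparisons, lower at the end of the early than of the control pulse (−1.32 ± 0.48, adjusted p = 0.0242), and that call was lost when control replicate 3 of 72 h (adjusted p = 0.0722), early replicate 1 of 48 h (0.0646) or early replicate 3 of 48 h (0.0845) was left out. It measured −0.49 on log2(FPKM + 1). At 96 h the difference of 0.25 ± 0.37 (adjusted p = 0.588) became 0.99 (adjusted p = 0.0297) without control replicate 1 and −0.14 (adjusted p = 0.68) without control replicate 3. Control 96 h against control 72 h gave 0.78 (adjusted p = 0.0291) without replicate 3 of 96 h and −0.36 (adjusted p = 0.469) without replicate 1. Early 72 h against control 96 h gave −1.01 (adjusted p = 0.00427) and 0.12 (adjusted p = 0.802) in the same order. The differences of 1.08 from early 48 to 72 h (adjusted p = 0.0833) and 0.87 from early 72 to 96 h (adjusted p = 0.0967) were called with no filter (adjusted p = 0.00461 and 0.00654) and in fits of only those groups (0.00841 and 0.00831).

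At 48 h, when only the early gastruloids had been treated, 7 of the 9 genes were lower in them and none was higher, where 43.7% of all tested genes were called, 23.0% higher and 20.7% lower. The falls ran from −0.69 for Ocln to −2.98 for Krt18, with Krt8, Cldn7, Cldn6, Cldn3 and Cldn4 between them. Cldn9 (−1.002 ± 0.52, adjusted p = 0.132) and Krt19 (−1.20 ± 0.49, adjusted p = 0.053) did not pass with all libraries. Both were called lower with no filter on low counts (adjusted p = 0.0072 and 0.00119), in a fit of only these groups (0.01645 and 0.00399) and without the 3 control libraries numbered 3 (0.0195 and 0.00904). Krt19 also passed in the DESeq2 Wald test (adjusted p = 0.0339) and on log2(FPKM + 0.1) (0.0467). The libraries of the groups did not overlap for 9 of the 9 genes, against 56.1% of all genes. The median log2 fold change was −1.20 over the 9 genes and 0.02 over all genes tested.

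At 72 h, with the control pulse just ended, 5 of the 9 genes were higher in early gastruloids and none was lower (44.9% of all genes were called, 21.7% higher and 23.2% lower). These were Cldn4, Krt18, Cldn3, Ocln and Cldn6, in order of size from 1.33 to 0.35. The median was 0.36 over the 9 genes and −0.02 over all genes. The groups were separate for 6 of the 9 genes, against 57.4% of all genes.

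At 96 h 6 of the 9 genes were higher in early gastruloids and none was lower (59.1% of all genes were called, 29.5% higher and 29.6% lower). Cldn7 and Cldn6 differed most, at 3.29 and 2.74, followed by Cldn3 (1.83), Krt18 (1.10), Ocln (0.95) and Cldn4 (0.58). The 3 genes that did not pass, Cldn9, Krt8 and Krt19, were those with the largest SD relative to the mean among the controls of 96 h. Cldn3, which was called, came close to Krt8 in this respect (4.46 ± 1.76 against 34.4 ± 14.5 CPM). Whether this spread bears on the missing calls was not tested. The median was 0.95 over the 9 genes and −0.01 over all genes, and the groups were separate for 6 of the 9 genes against 61.2% of all genes.

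**Figure D2:**
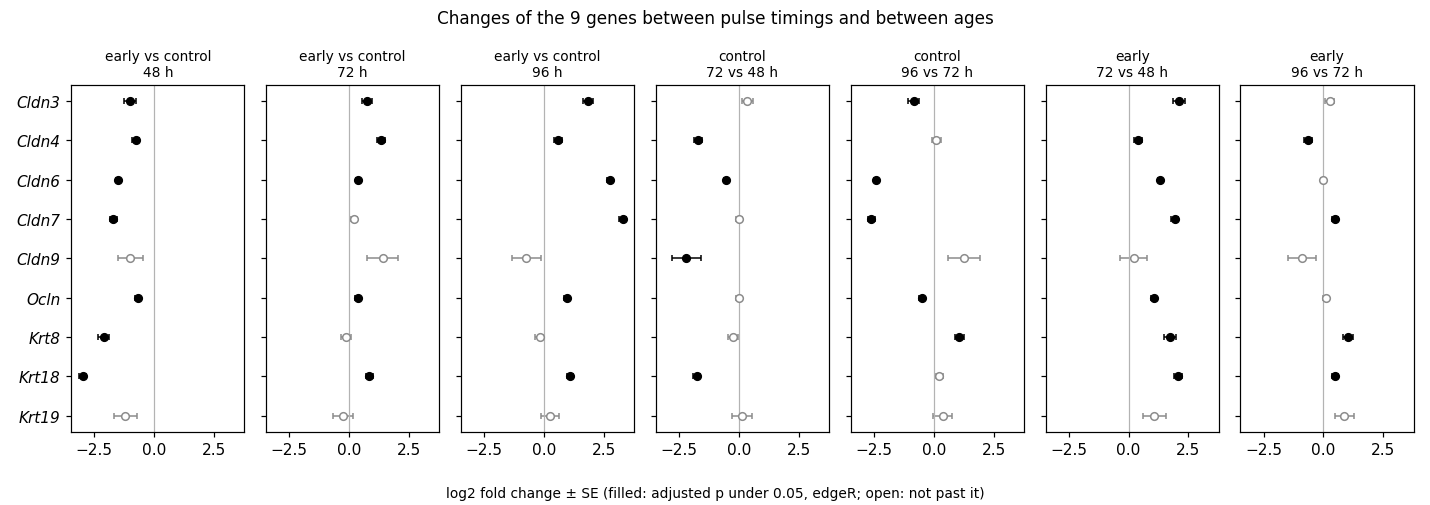
Log2 fold change ± SE of each gene (rows) in 7 comparisons (panels, all on the same horizontal scale), early against control at each age and each step of age within an arm; filled points passed an adjusted p of 0.05 in edgeR's test. The points of Cldn6 and Cldn7 lie at −1.50 and −1.71 at 48 h and at 2.74 and 3.29 at 96 h, and Krt8 is open at 72 and 96 h.

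The arms were also set against each other at matched times from the pulse. The groups compared in this way also differ in age by a day, so that age and pulse timing cannot be told apart. Comparisons at the same age differ instead in the time since the pulse. At the end of the pulse, early 48 h against control 72 h, 7 of the 9 genes were lower and 1, Cldn4, was higher (61.1% of all genes were called, 29.5% higher and 31.7% lower). Krt8 (−1.88 ± 0.25, adjusted p = 3.16e-06), Cldn7 (−1.72 ± 0.13, adjusted p = 4.04e-09) and Cldn3 (−1.36 ± 0.24, adjusted p = 0.000108) had the largest differences, and the groups were separate for 8 of the 9 genes against 67.1% of all genes. 1 day after the pulse, early 72 h against control 96 h, 6 of the 9 genes were higher and Krt8 was lower (69.7% of all genes were called, 34.3% higher and 35.4% lower). Cldn7 was 7.04-fold higher (2.82 ± 0.14, adjusted p = 5.11e-12), Cldn6 was 6.79-fold higher (2.76 ± 0.09, adjusted p = 1.02e-14) and Krt8 was 2.32-fold lower (−1.21 ± 0.20, adjusted p = 3.58e-05). Here the groups were separate for 7 of the 9 genes against 72.4% of all genes. The medians over the 9 genes were −1.22 and 0.86, and those over all genes −0.02 and −0.01.

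Within the controls, 4 of the 9 genes fell over the pulse from 48 to 72 h and none rose (61.4% of all genes were called, 31.1% higher and 30.3% lower): Cldn9, Krt18, Cldn4 and Cldn6. The groups were separate for 5 of the 9 genes, against 66.0% of all genes. From 72 to 96 h, 4 genes fell, Cldn7, Cldn6, Cldn3 and Ocln, and Krt8 rose (54.9% of all genes were called, 27.5% higher and 27.4% lower). The groups were separate for 5 of the 9 genes against 56.0% of all genes. Without control replicate 3 of 96 h, 8 of the 9 genes were called in that step, since Cldn4 (0.35, adjusted p = 0.0112), Krt18 and Krt19 were then called higher. Without control replicate 1 of 96 h, Cldn4 gave −0.08 (adjusted p = 0.744). With each library of this step left out in turn, 8015 to 9096 of all genes were called, against 8802 with all libraries. In the early arm 7 genes rose from 48 to 72 h and none fell (42.6% of all genes were called, 20.7% higher and 21.9% lower), led by Cldn3 (2.10), Krt18 (2.06), Cldn7 (1.92) and Krt8 (1.74 ± 0.25, adjusted p = 2.36e-05). The groups were separate for those 7 genes, against 60.0% of all genes. From 72 to 96 h in that arm Krt8, Krt18 and Cldn7 rose and Cldn4 fell (35.3% of all genes were called, 17.6% higher and 17.6% lower). The groups were separate for 6 of the 9 genes against 53.0% of all genes. A fit of those 6 libraries alone called 7 of the 9 genes in this step, adding Cldn3, Cldn9 and Krt19. The count of all genes called in that fit stayed within 1.5 times of the 5656 called with all libraries.

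The steps themselves were compared by interaction terms. The day after the pulse fell at different ages in the arms, so that age and pulse timing cannot be told apart there either. On the day after the pulse, 5 of the 9 genes changed more positively in the early arm than in the controls and none more negatively (44.5% of all genes were called, 22.8% higher and 21.7% lower). Cldn7, which rose in 1 arm and fell in the other, differed by 4.53 ± 0.20 on the log2 scale and Cldn6 by 3.71 ± 0.12. Between 72 and 96 h the early minus control difference grew for 4 genes and shrank for 1, Cldn4 (33.6% of all genes were called, 17.8% higher and 15.7% lower). The medians over the 9 genes were 1.55 and 0.50, against −0.01 and 0.02 over all genes.

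Summed over the 5 claudins, the level per library was 119 ± 2.95 FPKM (SD, n = 3) in control 48 h, 89.9 ± 6.01 in control 72 h and 24.5 ± 3.5 in control 96 h. In the early arm the sum was 45.7 ± 2.12 FPKM at 48 h, 118.6 ± 4.6 at 72 h and 126.9 ± 4.45 at 96 h. The early libraries of 72 h, at 113.5 to 122.4 FPKM, overlapped the untreated controls, at 115.7 to 121.4 FPKM. In CPM they did not, at 214.6 to 224.5 against 226.1 to 243 CPM, and control 48 h rather than early 96 h had the highest mean sum. Cldn6 made up 60.6% ± 0.342 of the FPKM sum in control 48 h, 56.5% ± 1.08 in early 72 h, 52.9% ± 0.796 in early 96 h and 41.4% ± 0.732 in control 96 h. The ratio of Cldn7 to Cldn4 FPKM was 1.12 ± 0.168 in control 48 h, 3.64 ± 0.292 in control 72 h and 0.543 ± 0.0353 in control 96 h. In the early arm it was 0.572 ± 0.0221, 1.66 ± 0.0566 and 3.67 ± 0.722 at 48, 72 and 96 h, so that early 96 h overlapped control 72 h.

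The balance of the keratin partners was read as a ratio, which no test showed to differ between groups. The ratio of Krt8 to Krt18 FPKM was 0.375, 0.332 and 0.372 in control 48 h, 1.09, 0.998 and 0.910 in control 72 h, and 1.92, 2.03 and 1.32 in control 96 h. Early libraries gave 0.750, 0.553 and 0.596 at 48 h, 0.474, 0.559 and 0.505 at 72 h, and 0.774, 0.685 and 0.761 at 96 h. The ratio was therefore above 1 in 4 of the 18 libraries, 1 of control 72 h and 3 of control 96 h, and below it in every early library. Of the 50-base windows of the transcripts, 29.7% of Krt8 but 0.72% of Krt18 recur elsewhere, and how such reads were counted is not given. Whether this bears on the ratio, or on the order of these keratins by FPKM, was not tested. In 8 of the 9 pairwise comparisons the groups did not overlap and the 2-sided exact permutation test on the log2 ratio gave its smallest possible p for 3 against 3 libraries, 0.1 (Benjamini-Hochberg 0.113 over the 9 comparisons). Early 72 h and early 48 h overlapped (exact p = 0.2). No comparison of this ratio could have passed 0.05 with 3 libraries a group.

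**Figure D3:**
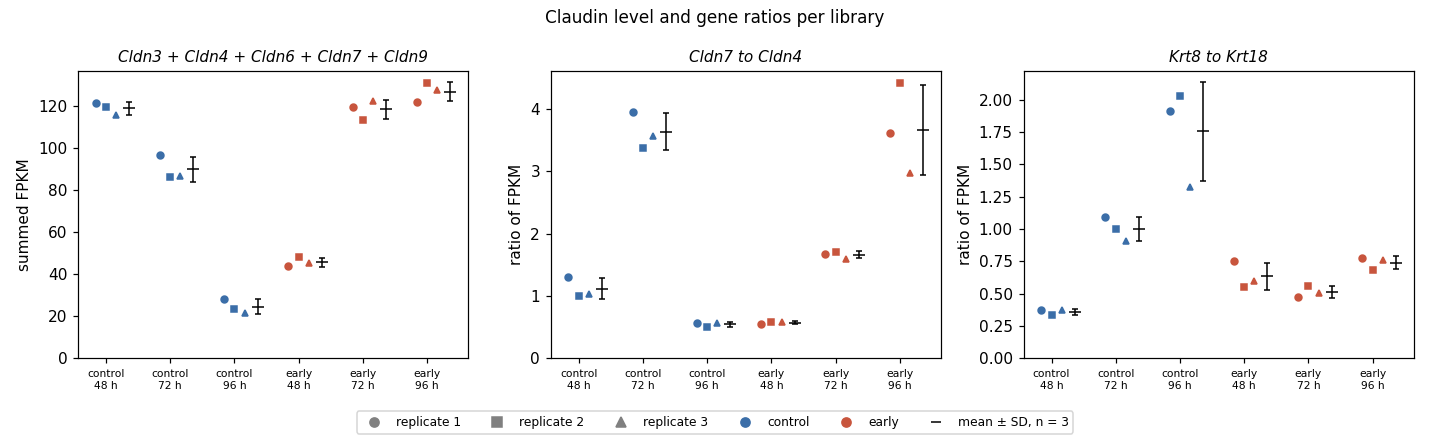
Summed FPKM of the 5 claudins, ratio of Cldn7 to Cldn4 FPKM and ratio of Krt8 to Krt18 FPKM (vertical axes from 0) in each of the 18 libraries, with symbols for replicates 1 to 3, colours for the arms and bars for the mean ± SD of 3 libraries. The claudin sum is lowest in control 96 h, at 24.5 FPKM, where the Krt8 to Krt18 ratio is highest, at 1.76.

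Over the 18 libraries the members fell into unlike courses. Pearson's r of log2 CPM was 0.95 between Cldn6 and Cldn7, 0.95 between Cldn3 and Ocln, 0.80 between Krt8 and Krt19 and 0.71 between Krt8 and Krt18. It was 0.07 between the neighbours Cldn3 and Cldn4, 0.15 between the neighbours Cldn6 and Cldn9, and −0.01 between Cldn6 and Krt8. These are descriptions over 6 groups of 3 libraries that share their arms and ages, and the 18 points are not independent. Among other genes with a mean of at least 5 CPM, the courses most like that of Cldn6 were those of Tnk1 (r = 0.98), Mmp25 (0.98), which lies 34.0 kb from it, and Cnn1 (0.98). Nearest to Cldn7 were Crb3 (0.98), Slc5a5 (0.98) and Emb (0.97), and nearest to Cldn4 were Rab15 (0.99), Acsl5 (0.97) and Fzd7 (0.96). Lrrc1 and Ank were among the nearest 3 of both Cldn3 (0.94 and 0.91) and Ocln (0.95 and 0.94), with Hspa4l (0.90) for Cldn3 and Arl4c (0.95) for Ocln. Krt8 was followed most closely by Marcks (0.97), Slc25a11 (0.96) and St6gal1 (0.95), and Krt18 by Mapk3 (0.94), Trim12c (0.94) and Stk39 (0.94). The nearest genes to Cldn9, Sema4d (0.86), Nrxn2 (0.85) and Rhpn2 (0.84), and to Krt19, Me1 (0.83), Ccdc28a (0.83) and Efhd2 (0.83), were less close.

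The rest of the tight junction was then read from a list of 18 further components, all of which were tested. At 48 h 12 were lower and 2 higher in early gastruloids, where 20.7% of all tested genes were lower and 23.0% higher, with a median of −0.62 against 0.02 over all genes. The falls included Cgnl1 (−1.77 ± 0.09, adjusted p = 2.18e-11) and Cgn (−1.31 ± 0.08), which encode scaffold proteins under the claudin strands. Jam2, a junctional adhesion molecule, went the other way (4.89 ± 0.31), from 0.567 ± 0.122 to 17.3 ± 1.91 CPM, as did the scaffold gene Magi1 (0.26 ± 0.10). At 96 h 9 were higher and 2 lower, where 29.5% of all genes were higher and 29.6% lower, with a median of 0.29 against −0.01 over all genes. Crb3, of the apical polarity complex, was 2.81 ± 0.15 higher (adjusted p = 3.4e-11) and Marveld3, of the occludin family, 2.59 ± 0.17 higher (adjusted p = 2.91e-10). F11r, another junctional adhesion molecule (−0.86 ± 0.04), and Magi1 (−0.57 ± 0.10) were lower. At 72 h 10 were higher and 2 lower (21.7% and 23.2% of all genes). On the day after the pulse 9 changed more positively and 3 more negatively in the early arm (22.8% and 21.7% of all genes).

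Among 16 other claudins only Cldn1, Cldn5, Cldn12 and Cldn15 had enough counts to be tested. Cldn1 was lower in early gastruloids at 48 h (−2.29 ± 0.25, adjusted p = 5.26e-07) and higher at 96 h (2.26 ± 0.43, adjusted p = 0.000179), on levels of at most 2.54 ± 0.429 CPM in any group. Cldn15 (1.43 ± 0.35) and Cldn12 (0.25 ± 0.09) were higher at 48 h and Cldn5 (1.38 ± 0.32) at 96 h. Of 5 other simple keratins 3 were tested, and Krt80 (−3.76 ± 0.41), Krt7 (−2.54 ± 0.38) and Krt222 (−2.39 ± 0.71) were all lower at 48 h. At 96 h Krt7 was higher (1.86 ± 0.38, adjusted p = 0.000344) and the other 2 did not pass. Desmosomes anchor keratin filaments. Of 11 tested desmosome and linker genes, 5 were lower and 2 higher at 48 h (20.7% and 23.0% of all genes), and 7 were higher and 3 lower at 96 h (29.5% and 29.6% of all genes). The 3 lower at 96 h were Dsp (−1.97 ± 0.09, adjusted p = 3.3e-12), the gene of the plakin that holds keratin, and the cadherins Dsc2 (−1.38 ± 0.13) and Dsg2 (−0.72 ± 0.16), while Jup was higher (0.90 ± 0.06).

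Genes of the epithelial surface were read in the same way. At 48 h 9 of 10 were lower in early gastruloids and none was higher (20.7% and 23.0% of all genes), among them Prss8 (−1.45 ± 0.08), Rab25 (−2.06 ± 0.14) and Spint1 (−0.64 ± 0.05). At 96 h 9 were higher and 1 lower (29.5% and 29.6% of all genes), among the former Rab25 (2.96 ± 0.17), St14 (1.03 ± 0.05) and Prss8 (1.36 ± 0.09), while Spint1 was lower (−0.23 ± 0.05). From 72 to 96 h in the controls 9 of the 10 fell and none rose (27.4% and 27.5% of all genes). The 10 tested regulators of epithelial genes were split. At 48 h 4 were higher and 3 lower (23.0% and 20.7% of all genes), with Elf3 up (1.87 ± 0.18) and the splicing factors Esrp1 (−0.88 ± 0.08) and Esrp2 (−1.28 ± 0.16) and Ovol2 (−1.14 ± 0.14) down. At 96 h 7 were higher and 3 lower (29.5% and 29.6% of all genes). The Grainyhead factor Grhl2 was higher (1.91 ± 0.09, adjusted p = 8.9e-12), and Grhl3 (−2.88 ± 0.13), Klf5 (−1.48 ± 0.25) and Tfap2c (−1.08 ± 0.24) were lower.

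Of 6 tested repressors of epithelial genes, 4 were higher and 2 lower in early gastruloids at 48 h, and 5 were lower and none higher at 96 h. Over all genes, 23.0% were higher and 20.7% lower at 48 h, and 29.6% lower and 29.5% higher at 96 h. Zeb1 (1.75 ± 0.18), Zeb2 (0.97 ± 0.15) and Twist1 (0.90 ± 0.14) were among those higher at 48 h, and Snai2 (−1.60 ± 0.34) and Tcf3 (−0.19 ± 0.06) were lower. At 96 h Zeb1 (−2.79 ± 0.14, adjusted p = 1.36e-11), Zeb2 (−1.83 ± 0.11) and Tcf3 (−0.59 ± 0.06) were lower. Zeb1 stood at 28.7 ± 1.86 CPM in control 96 h and at 4.12 ± 0.583 CPM in early 96 h. Over the control pulse 4 of the 6 were higher and 2 lower (31.1% and 30.3% of all genes). All 6 rose in the controls from 72 to 96 h, as did 27.5% of all genes. At the end of the early against the control pulse, 1 was higher and 3 were lower (29.5% and 31.7% of all genes). The median of the repressors was −0.53 in that comparison, where 7 of the 9 genes were also lower, with a median of −1.22. Whether these levels bear on the claudins was not tested.

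**Figure D4:**
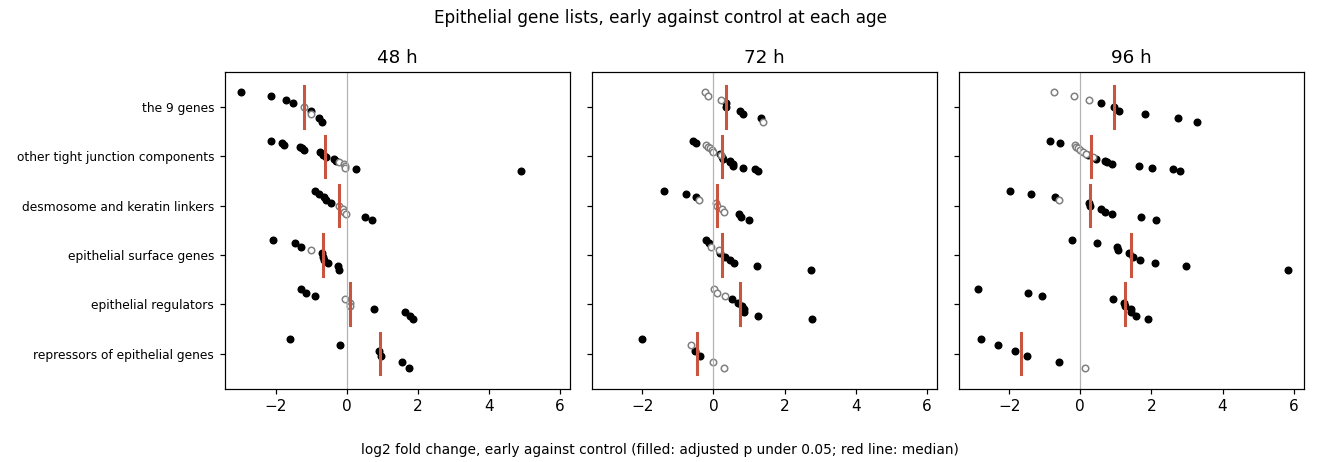
Log2 fold change of early against control at 48, 72 and 96 h (panels) for each tested gene of 6 lists (rows); filled points passed an adjusted p of 0.05 and red lines are list medians. The median of the 9 genes moves from −1.20 to 0.36 and 0.95, that of the epithelial surface genes from −0.68 to 0.25 and 1.42, and that of the repressors from 0.93 to −0.45 and −1.66.

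Other tissues also make claudins and simple keratins, and their markers were read beside these results. The summed level of 9 trophoblast markers was 251 to 374 CPM in control 96 h and 3.41 to 44.9 CPM elsewhere. The list shares Tfap2c with the regulators of epithelial genes. The sum in control 96 h was carried by Cdx2, also a gene of the caudal embryo, at 283 CPM. Tfap2c too had its highest mean there, at 12.3 ± 3.7 CPM, while Ascl2 had its lowest, at 0.508 ± 0.215 CPM. Tpbpa and Prl3d1 were at 0 in every library of all groups. The sum of 9 extraembryonic endoderm markers was 46.3 to 122 CPM in control 96 h and 10.4 to 50.9 CPM elsewhere. It was carried in control 96 h by Pdgfra, also a mesoderm gene, at 76.8 CPM against 3.27 CPM in early 96 h. Every other marker of that list had a higher mean in early 96 h than in control 96 h. Among them were Dab2 (30.7 ± 1.88 against 13.5 ± 5.44 CPM) and Gata4 (5.85 ± 0.239 against 2.58 ± 1.13 CPM). The sum of 7 definitive endoderm markers was 47.7 to 258 CPM in the controls and 696 to 988 CPM in the early arm. Trh made up most of it, with 949 CPM in early 48 h, where Sox17 was at 0.416 CPM and Foxa2 at 0.976 CPM. Cldn7, Cldn3, Ocln and the scarce Krt19 had their highest means in early 96 h. There Foxa2 stood at 20 ± 2.45 CPM, Gsc at 5.08 ± 1.27 CPM and Cer1 at 1.88 ± 1.08 CPM, each its highest mean of the 6 groups. Sox17 (1.20 ± 0.427 CPM) and Cxcr4 (1.49 ± 0.297 CPM) of the same list were instead highest in control 96 h. They stood at 3.28 ± 1.19 and 22.9 ± 2.12 CPM in that group. The 4 streak and caudal markers summed to 525 to 699 CPM in early 96 h, 1075 to 1502 CPM in control 72 h, 899 to 1394 CPM in control 96 h and at most 65.8 CPM elsewhere. The 5 surface ectoderm markers summed to 19.2 to 25.8 CPM in control 96 h and at most 5.38 CPM elsewhere. In control 96 h this sum was carried by Wnt6, at 19.6 ± 3.52 CPM. Krt5 also had its highest mean there, at 1.06 ± 0.543 CPM, while Trp63 and Krt14 were at 0. Tfap2a was at 1.31 ± 0.336 CPM there and highest in early 48 h, at 3.20 ± 0.6 CPM. Sums of 5 notochord and node markers stayed between 7.86 and 29.2 CPM, and of 7 fibroblast markers between 7.35 and 39.3 CPM. The part of these cell types in the levels of the 9 genes was not tested. Control 96 h, where Cldn6 and Cldn7 were lowest, was also the group with the lowest summed epiblast and the highest summed presomitic markers. The epiblast sum was mostly Pou5f1. Pou5f1, Nanog and Utf1 each had their lowest mean in control 96 h, but Sox2 did not. Sox2 stood at 89.9 ± 36.2 CPM there, against 39.8 ± 18.5 CPM in control 72 h and 65.0 ± 6.29 CPM in early 96 h.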

How the data were processed

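PolyA RNA of 18 libraries, 3 in each of 6 groups, was made into strand-specific libraries by ligation, per the labels' protocols. Groups, ages and replicate numbers came from the labels, library columns matched the sample descriptions, and 0 sample columns were unused. Reads were trimmed with cutadapt 4.0, aligned with STAR 2.7.8a to mm10 and passed to Cufflinks 2.2.1, per the submitters' processing notes. The deposited count table holds the authors' raw counts of 55385 genes. The deposited FPKM table holds the authors' FPKM of 55468 genes, scaled by transcript length and library size. How the counting tool treated strand and multi-mapping reads is not given in the sources used here. Coordinates are those of GENCODE M21, which matched the deposited loci of all 9 genes, whose starts are counted from 0.

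Counts were filtered with filterByExpr, scaled by TMM and fitted in 1 model of the 6 groups and 18 libraries in edgeR 4.0.16 (limma 3.58.1, R 4.3.3). There were 9 pairwise contrasts and 2 interactions, tested 2-sided and adjusted by Benjamini-Hochberg over 16041 genes. The SE was derived from F, as |log2 fold change|/√F. The test was checked on simulated counts with known changes. Library totals of 14841728 to 24536538 left Cldn9 with as few as 4 counts and Krt19 with as few as 8, which limits both. CPM and FPKM values of groups are means ± SD over 3 libraries.

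The 9 genes, the context and marker lists and the tests were chosen with earlier results of these data known. Named genes were all 9 members in every group, up to 3 genes of lowest adjusted p per list with those called against most of their list, and the 3 genes of highest Pearson r per member. Alternatives were DESeq2 1.42.0 size factors and Wald test, other filters, a replicate block, fits restricted to the compared groups, each library left out, and limma-trend with 1 or 0.1 added to FPKM before log2. A fit without the 3 control libraries numbered 3 was added after seeing the data. Tables and figures used matplotlib 3.10.9, pandas 2.3.3 and numpy 2.4.6 under Python 3.11.15. The permutation tests were run in R 4.3.3.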

Additional observations from a re-analysis of the deposited data

Results flagged for a closer look

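The early minus control difference changed between 72 and 96 h for 5 of the 9 genes, against 33.6% of all genes, in edgeR's interaction term, adjusted by Benjamini-Hochberg over all genes. It grew by 3.08 ± 0.19 for Cldn7 (adjusted p = 9.6e-10), 2.38 ± 0.12 for Cldn6 (adjusted p = 5.8e-11), 1.08 ± 0.31 for Cldn3 (adjusted p = 0.0106) and 0.59 ± 0.15 for Ocln (adjusted p = 0.00573) on the log2 scale. For Cldn4 it was −0.75 ± 0.24 (adjusted p = 0.0191), since its difference shrank. That call on Cldn4 did not pass without control replicate 1 (adjusted p = 0.073) or 2 (0.0517) of 96 h, without early replicate 2 of 96 h (0.0548), in a fit of only the 4 groups involved (0.0524) or on the FPKM scales (0.0512 to 0.103). Without control replicate 1 of 96 h, Krt18 (0.48, adjusted p = 0.0332) and Cldn9 (−2.67, adjusted p = 0.01545) were called as well. Leaving out control replicate 2 of 96 h likewise gave a call for Cldn9 (−2.52, adjusted p = 0.0357), as did the DESeq2 Wald test (−2.29, adjusted p = 0.0397) and the fit with no filter on low counts (−2.14, adjusted p = 0.000682).

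The change over the day after the pulse differed between the arms for 5 of the 9 genes, against 44.5% of all genes, tested in the same way. The step of the early arm minus that of the controls was 4.53 ± 0.20 for Cldn7 (adjusted p = 7.06e-12), 3.71 ± 0.12 for Cldn6 (adjusted p = 2.03e-13), 2.93 ± 0.33 for Cldn3 (adjusted p = 1.16e-06), 1.82 ± 0.21 for Krt18 (adjusted p = 1.72e-06) and 1.55 ± 0.16 for Ocln (adjusted p = 2.95e-07). The difference for Krt8, 0.67 ± 0.32, did not pass (adjusted p = 0.103) and passed (0.97, adjusted p = 0.00925) once control replicate 1 of 96 h was left out, without the 3 control libraries numbered 3 (0.42, adjusted p = 0.0282), with no filter (0.68, adjusted p = 0.000203) and on log2(FPKM + 0.1) (0.82, adjusted p = 0.0426). Krt19 passed when control replicate 1 of 96 h was left out (1.45, adjusted p = 0.0416, against 0.71 and 0.39 with all libraries).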

How the results depend on the processing

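The 9 genes were recomputed in every contrast under each alternative, which gave 1673 values. Of 1057 values of genes called with all libraries, 1034 were called in the same direction, 23 lost the call and 0 changed sign. Of the others, 52 gained a call and 43 changed sign. The count of the 9 genes called stayed within 1.5 times in 183 of 186 recomputations, and that of all genes in 186 of 186. The exceptions were the step of the early arm from 72 to 96 h in a fit of only those groups (7 genes against 4), and the change of the controls between 72 and 96 h without the 3 control libraries numbered 3 (8 against 5) or with each library left out (5 to 8).

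Some values, several of them close to 0, changed sign without a call. For Cldn7 in the controls from 48 to 72 h these were −0.0143 with DESeq2 size factors, −0.0003 with a filter of 1 CPM and −0.0144 in the DESeq2 Wald test. On the FPKM scales Ocln gave 0.0565, 0.0682 and 0.0565 in that step, Cldn6 0.004 from early 72 to 96 h, and Krt8 0.1011, 0.1267 and 0.1011 in the interaction of 96 against 72 h. Without the 3 control libraries numbered 3, Cldn9 gave 0.7912 at 96 h, −0.1705 in the controls from 72 to 96 h and 0.388 in the interaction of the day after the pulse. With all libraries these values of Cldn9 were −0.7367, 1.2455 and −1.0341, which are not close to 0. Krt19 gave −0.1482 at 96 h, −0.0872 in the controls from 48 to 72 h and −0.0745 in the interaction of 96 against 72 h without those libraries. With all libraries it had given 0.2493, 0.12 and 0.4955.

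With each library left out, sign changes were seen in these ranges: Cldn7 −0.1103 to 0.0849, Ocln −0.0443 to 0.0281 and Krt19 −0.0413 to 0.3086 in the controls from 48 to 72 h. For the controls from 72 to 96 h they were Cldn4 −0.0792 to 0.3523, Cldn9 −0.2645 to 1.7769 and Krt19 −0.3567 to 0.775. For early against control at 96 h they were Krt8 −0.463 to 0.1208, Cldn9 −1.2567 to 0.7884 and Krt19 −0.1392 to 0.9894, and Krt19 −0.4457 to 0.0484 at 72 h. For early 72 h against control 96 h they were Cldn9 −0.3633 to 1.6804 and Krt19 −1.0096 to 0.1187. Cldn9 ranged from −0.0956 to 0.5613 from early 48 to 72 h and from −1.5543 to 0.484 in the interaction of the day after the pulse, Cldn6 from −0.0694 to 0.0044 from early 72 to 96 h, and Krt8 from −0.3322 to 0.2528 in the interaction of 96 against 72 h. The cause was not tested.

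With CPM in place of FPKM the ratio of Krt8 to Krt18 was 0.4865, 1.394 and 2.415 in control 48, 72 and 96 h and 0.885, 0.7058 and 1.026 in the early arm. The claudin sums were 236.9, 158.9, 45.1, 93.88, 220 and 223.7 CPM in the same order, since CPM does not divide by length.

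The labels do not say that a replicate number marks shared material. Correlations of same-numbered deviations from the group means ranged from −0.06 to 0.158, and the main fit did not treat the numbers as pairs. Yet 14 of 18 libraries correlated best with their own number, a hint from the data only. Whether the numbers mark shared material was not tested. With the replicate block, the rise of Cldn4 from early 48 to 72 h (0.3973) did not pass (adjusted p = 0.0523), 6 rather than 7 genes were called in that step, and the other 10 counts of members called were the same.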
